A study of Homo sapiens with 24 samples.

Results

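SKM-1 is an established human acute myeloid leukaemia (AML) cell line, and the comparison described here set its cells after 24 h with 200 nM ABBV-744 (2 libraries) against its cells after 24 h with 100 nM ABBV-075 (2 libraries). A gene entered when it reached 1 FPKM (fragment counts scaled to transcript length and library size, the deposited unit) in at least 2 of these 4 libraries. This left 12734 of 30373 rows, of which 11891 of 21670 carry a matched gene symbol. The study holds 24 poly-A RNA libraries from 4 lines, namely SKM-1, MV-4-11 and Kasumi-1 from AML and NCI-H1299 from lung cancer, each given DMSO vehicle, ABBV-075 or ABBV-744. No DMSO library entered the comparison, and the 2 SKM-1 DMSO libraries are quoted beside it as the untreated level. The doses of the compounds differ, so compound and dose cannot be told apart in any difference below. Nothing in the labels shows that the 2 libraries of a group are separate cultures. The p-values therefore reflect the spread between libraries alone, and this may be technical.

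BET proteins carry a pair of bromodomains that hold them on acetylated histones at active genes, where they help RNA polymerase II into elongation. ABBV-075 (mivebresib) binds both bromodomains, and ABBV-744 is selective for the second. In myeloid leukaemia, BET inhibitors are known for lowering MYC and other genes kept active by large enhancers, and for raising HEXIM1 and a group of histone genes.

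The labelled cell type was checked first. All 8 myeloid markers were found above 1 FPKM in at least 1 of the 4 treated libraries. Of the markers of other cell types, 9 of 10 lymphoid genes, 10 of 11 erythroid and megakaryocyte genes, 7 of 8 epithelial genes and 8 of 9 fibroblast genes lay under 1 FPKM in all 4, and MS4A1, GNLY, HBB, HBG1, PF4, PPBP, KRT19, COL1A2, COL3A1, DCN and LUM were listed at 0. The exceptions were NKG7, EPOR, EPCAM and SPARC. Summed over its markers, the lymphoid list lay at 3.93 to 5.93 FPKM with ABBV-075 and 12.2 to 14.3 with ABBV-744, and the fibroblast list at 51.6 to 75.8 and 79.5 to 83.6. In bulk RNA, fewer cells of a type and less RNA per cell cannot be told apart.

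The libraries of a compound were close. Genes are no independent replicates. Taken over them, the SD of the log2 difference between the 2 libraries was 0.228 with ABBV-744 and 0.306 with ABBV-075, and 0.655 with DMSO. Mitochondrial transcripts made up 8.68% to 9.58% of the FPKM sum in the 4 treated libraries, and 9.13% and 22.3% in the DMSO libraries. FPKM sums ran from 567761 to 611185 in the 6 libraries, and depth is unknown because no counts were used. At the border of the filter, the second highest of the 4 values was 1.0004 FPKM for KLHL32 and 1.0006 for CAMKK1, which entered, and 0.9992 for SCAND3 and 0.9989 for RUNDC3B, which did not.

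The compounds left SKM-1 cells with widely different transcriptomes. Of the 12734 genes tested, 5784 (45.4%) were called at an adjusted p under 0.05, 3011 (23.6%) higher and 2773 (21.8%) lower with ABBV-744. At a difference of at least 2-fold, that is 1 on the log2 scale, 1016 genes (7.98%) were higher and 454 (3.57%) lower. Differences are on the log2(FPKM + 1) scale throughout, ABBV-744 minus ABBV-075, which understates the change of low genes, and errors after ± are standard errors from the model with 2 libraries per group. The median difference was -0.005, with quartiles at -0.37 and 0.40. A rise or fall of a gene below is of ABBV-744 against ABBV-075, and not against DMSO. Each list count below is to be read beside the 23.6% called higher and 21.8% called lower over all genes. In 9404 genes (73.8%) the values of the 2 groups did not overlap. Without ABBV-744 replicate 1 the call count was 3725, and without replicate 2 it was 3715, while without ABBV-075 replicate 1 or 2 it was 6584 or 6291. The labels number no replicates, so replicate 1 and 2 here only name the libraries of a group in the order of their records. From here on 1 library is left out at a time, so that a call lost without either library is lost without each of them alone. Fitted together with the DMSO libraries of the line, whose spread was wide, 2372 genes were called, of which 909 were at least 2-fold higher and 421 at least 2-fold lower.

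**Figure D1:**
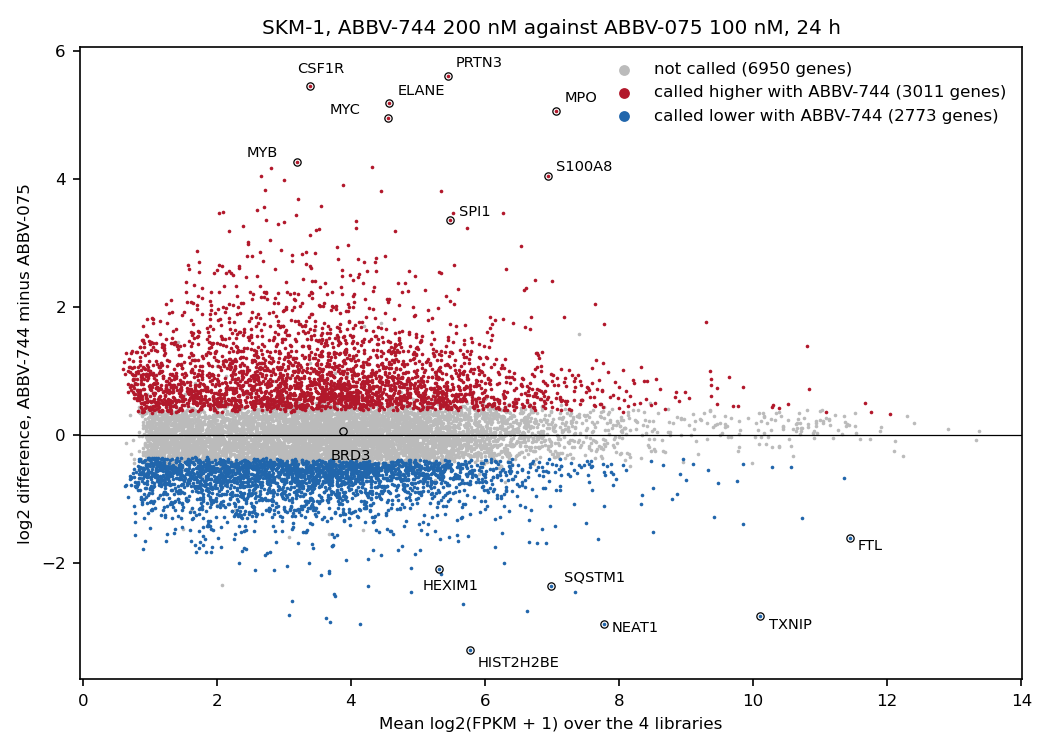
Difference between the compounds (y axis, log2(FPKM + 1), ABBV-744 minus ABBV-075) against the mean log2(FPKM + 1) of the 4 SKM-1 libraries (x axis), 1 point per gene tested. Red points are the 3011 genes called higher and blue points the 2773 called lower with ABBV-744. The upper arm reaches 5.62 (PRTN3) and the lower arm -3.37 (HIST2H2BE).

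MYC, a transcription factor of cell growth, lay far apart between the compounds. It stood at 3.17 and 3.27 FPKM in the ABBV-075 libraries and at 121 and 139 in the ABBV-744 libraries, beside 309 and 178 with DMSO. The difference was 4.96 ± 0.14 (adjusted p 6.20e-06), and the groups did not overlap. MYB, a transcription factor of blood progenitors, showed the same order, with 1.03 and 1.14 FPKM under ABBV-075, 39.2 and 39.4 under ABBV-744 and 91.7 and 115 under DMSO. Its difference was 4.27 ± 0.13. The death inhibitor BCL2 read 1.71 and 1.47 FPKM with ABBV-075 and 7.96 and 7.64 with ABBV-744, a difference of 1.77 ± 0.13, against 26.1 and 25.9 with DMSO. For CDK6, a G1 kinase, the levels were 1.69 and 2.05 and 3.33 and 3.46 FPKM and the difference was 0.62 ± 0.13. Both ABBV-744 libraries lay below both DMSO libraries for MYB, MYC, BCL2 and CDK6.

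These 4 genes belong to a list of 8 that BET inhibitors are known to lower. Of the 8, 6 were tested and all 6 were called higher with ABBV-744, with a median difference of 2.99, beside -0.005 over all genes. The filter passes a gene that is high with ABBV-744 alone, and with no filter the median was 2.19. The other 2 tested were SPI1 and LY86, a surface protein of myeloid cells, at 2.61 ± 0.14. The chemokine receptor gene CCR2 and the receptor gene CD180 fell under the filter. CCR2 was at 0.0976 and 0.0413 FPKM with ABBV-075 and 0.136 and 0.215 with ABBV-744, beside 2.91 and 4.26 with DMSO, and CD180 was at 0.0399 and 0.0407, 0.226 and 0.163, and 2.18 and 2.14.

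Genes that BET inhibitors are known to raise gave the mirror image. All 12 of 12 were tested and called lower with ABBV-744, 11 of them at least 2-fold, with a median of -1.66. HEXIM1, which holds the elongation kinase P-TEFb inactive, reached 82.5 and 80.5 FPKM with ABBV-075 and 18.1 and 18.5 with ABBV-744, a difference of -2.09 ± 0.13 (adjusted p 3.48e-05), and lay at 7.33 and 12.4 with DMSO. SERPINI1, a serine protease inhibitor, read 13.9 and 17.1 and 5.61 and 4.05 FPKM, a difference of -1.51 ± 0.18. SAT1, the polyamine acetyltransferase, differed by -1.69 ± 0.14. The smallest difference of the list was in BRD2, itself a BET protein, with 147 and 133 FPKM under ABBV-075 and 106 and 109.8 under ABBV-744. Its difference of -0.37 ± 0.13 had an adjusted p of 0.0484 and was no longer called without ABBV-075 replicate 1 or without either ABBV-744 library. BRD3, the related BET gene, lay at 13.6 and 13.3 and 13.8 and 14.4 FPKM and was not called, with a 95% interval of the difference from -0.24 to 0.37. Its sign turned when libraries were centred on their medians.

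Among 20 genes of the BET and P-TEFb machinery, 19 were tested, 1 was called higher and 7 lower, beside 23.6% and 21.8% over all genes. With the 2 DMSO libraries of the line in the fit, 3 were called lower. The count of higher genes also moved when ABBV-075 replicate 1 was left out. The kinase subunit CDK9 differed by -0.77 ± 0.16 and MLLT3, a subunit of the super elongation complex, by -1.01 ± 0.15. HEXIM2, a relative of HEXIM1, was the gene called higher, at 0.57 ± 0.18, and its call was lost without ABBV-744 replicate 2. Among 12 genes of the MYC and MAX network, 10 were tested. MXD4, which competes with MYC for its partner MAX, went from 104 and 80.3 FPKM with ABBV-075 to 28.2 and 31.8 with ABBV-744, a difference of -1.58 ± 0.16, and its relatives MXD1 and MXI1 differed by -1.005 ± 0.16 and -0.78 ± 0.17. MXD3 was called higher at 0.77 ± 0.21. The network had 2 genes called higher, and 4 without ABBV-075 replicate 1. MAX was at 22.3 and 22.5 and 18.4 and 19.8 FPKM and was not called (adjusted p 0.216).

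Genes that build ribosomes were higher with ABBV-744 almost throughout. Of 32 ribosome biogenesis genes, all were tested, 31 were called higher, 26 of them at least 2-fold, and the median difference was 1.23. NOP16, a nucleolar factor of the large subunit, was at 7.18 and 6.65 FPKM with ABBV-075 and 52.2 and 53.98 with ABBV-744, beside 97.3 and 50.1 with DMSO, a difference of 2.77 ± 0.14 (adjusted p 1.44e-05). RRS1 and MRTO4, assembly factors of the large subunit, differed by 2.45 ± 0.13 and 2.20 ± 0.14, and BYSL, which acts on the small subunit, by 1.67 ± 0.16. The gene not called was NPM1, the abundant nucleolar chaperone, at 1079 and 1222 and 1577 and 1351 FPKM. Fewer calls were made among the proteins of the cytosolic ribosome itself. Of 36 such genes, 33 were not called, the median difference was 0.16, and the 3 called higher, RPLP0, RPS14 and RPS18, had differences of 0.36 to 0.44. Their calls were lost without either ABBV-744 library or ABBV-075 replicate 2, and that of RPS14 also without ABBV-075 replicate 1. NPM1 was called without ABBV-075 replicate 2.

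Of the 24 genes of the mitochondrial ribosome, 21 were called higher with a median of 0.83. MRPL24 and MRPL11, both of its large subunit, differed by 1.80 ± 0.13 and 1.73 ± 0.15. Nucleotide synthesis followed. Of 19 genes, 15 were called higher and the median was 0.86. The largest difference belonged to NME1, a nucleoside diphosphate kinase, with 10.6 and 8.96 FPKM under ABBV-075, 144 and 158 under ABBV-744 and 314 and 238 under DMSO, a difference of 3.82 ± 0.15. PFAS, an enzyme of purine synthesis, differed by 1.81 ± 0.15. IMPDH2, which commits purines to guanine nucleotides, was not called at 0.14 ± 0.13.

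Replication genes were higher with ABBV-744 nearly throughout. Of 38 genes of DNA replication and entry into S phase, 37 were tested, 36 were called higher, 30 at least 2-fold, and the median was 1.39. MCM5, a subunit of the replicative helicase, lay at 18.1 and 11.9 FPKM with ABBV-075, 66.6 and 83.2 with ABBV-744 and 101.0 and 58.1 with DMSO, a difference of 2.27 ± 0.21 (adjusted p 1.76e-04). GINS2, part of the same helicase, and UHRF1, which keeps DNA methylation through replication, differed by 2.26 ± 0.15 and 2.24 ± 0.16. The exception was RRM2, the small subunit of ribonucleotide reductase, at 88.9 and 99.2 FPKM with ABBV-075, 107 and 100.5 with ABBV-744 and 52.02 and 55.9 with DMSO, with a difference of 0.14 ± 0.13. Both treated groups lay above both DMSO libraries for RRM2. Of 32 mitotic genes, 13 were called higher, the median was 0.38, and only FOXM1 and MAD2L1 passed 2-fold, at 1.06 ± 0.16 and 1.03 ± 0.17. FOXM1 drives the mitotic program and MAD2L1 acts in the spindle checkpoint. That count was 4 without ABBV-744 replicate 1, 4 without ABBV-744 replicate 2 and 3 when the 2 DMSO libraries of the line were in the fit. TOP2A, the topoisomerase of dividing cells, was at 153 and 186 and 217 and 195 FPKM and was not called, but gained a call without ABBV-075 replicate 2.

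Of 17 genes of the G1 cyclin, RB and E2F group, 14 were tested and 10 were called higher, with a median of 0.86. CDC25A, the phosphatase that activates CDK2, differed by 1.89 ± 0.13, and E2F1, the transcription factor of S phase genes, by 1.71 ± 0.18. CCND3, the D cyclin with the highest level here, was at 346 and 301 FPKM with ABBV-075 and 245 and 262 with ABBV-744 and was not called (adjusted p 0.0658), but gained a call without ABBV-075 replicate 2. The CDK inhibitors split. CDKN1A, the p21 gene, went from 202 and 165 FPKM with ABBV-075 to 78.98 and 89.2 with ABBV-744, beside 20.5 and 14.5 with DMSO, a difference of -1.11 ± 0.15. CDKN1C differed by -1.54 ± 0.13, while CDKN2D and CDKN1B differed by -0.70 ± 0.19 and -0.62 ± 0.15. CDKN2A and CDKN2C were called higher at 0.60 ± 0.14 and 0.45 ± 0.14, and both lost the call without either ABBV-744 library, as did CDKN1B, and CDKN2C also without ABBV-075 replicate 1. CDKN2D lost it without ABBV-744 replicate 1.

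**Figure D2:**
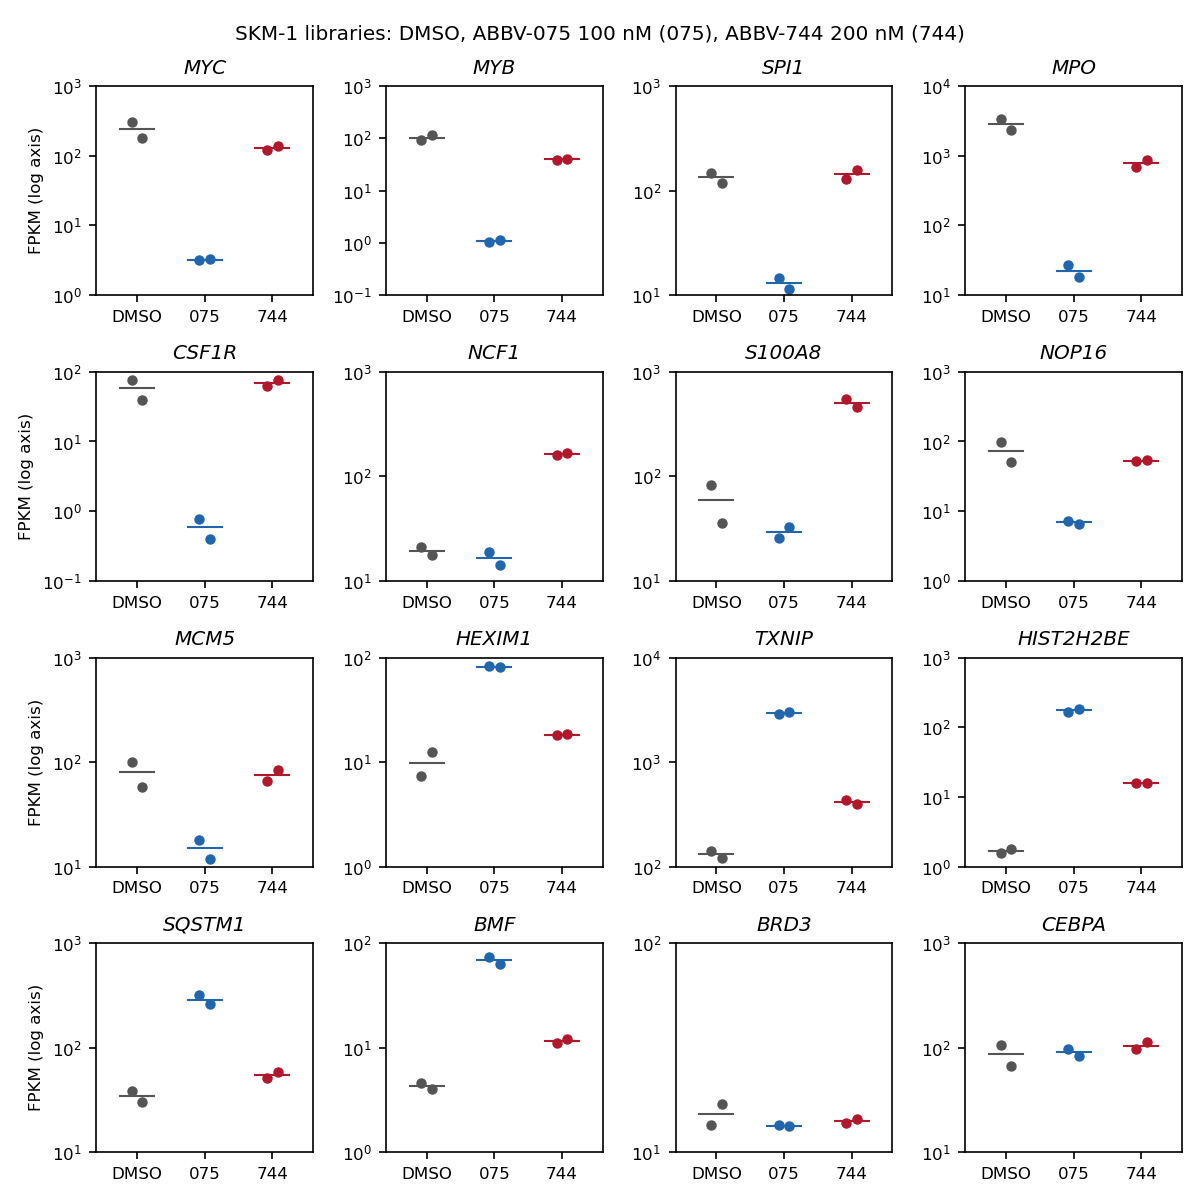
FPKM in each SKM-1 library (y axes, logarithmic) for 16 genes under DMSO, ABBV-075 and ABBV-744, with 2 points per group and a line at their mean. In the MYC to MCM5 panels the ABBV-744 points lie above the ABBV-075 points, from HEXIM1 to BMF below them, and for BRD3 and CEBPA within a narrow band.

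The proteases and peroxidase of neutrophil granules were among the genes that differed most. PRTN3, proteinase 3, was at 6.27 and 4.31 FPKM with ABBV-075, 257 and 359.7 with ABBV-744 and 1369 and 718 with DMSO. Its difference of 5.62 ± 0.21 (adjusted p 7.18e-06) was the largest of all genes tested. ELANE, neutrophil elastase, read 3.32 and 2.57, 124 and 163 and 329.8 and 282 FPKM in the same order, a difference of 5.19 ± 0.18. MPO, myeloperoxidase, read 26.9 and 17.99, 679 and 881 and 3374 and 2328, a difference of 5.07 ± 0.21, and AZU1, azurocidin, 29.9 and 16.4, 221 and 299 and 545 and 292, a difference of 3.47 ± 0.27. In PRTN3, ELANE and MPO the ABBV-744 libraries lay between the ABBV-075 and DMSO libraries without overlap, and in AZU1 they overlapped DMSO. Of 20 genes of primary granules and myeloid progenitors, 14 were tested, 13 were called higher, 12 at least 2-fold, and the median was 2.31. A gene silent with ABBV-075 passes the filter only if it reaches 1 FPKM with ABBV-744, so these counts are no measure of the 20. With no filter the median was 1.61. KIT, the stem cell factor receptor, differed by 2.21 ± 0.14, and LYZ, lysozyme, by 2.59 ± 0.13. FLT3, the receptor kinase of progenitors, was at 4.31 and 4.84 and 6.88 and 5.65 FPKM and was not called (adjusted p 0.0651), but gained a call without ABBV-075 replicate 2.

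AZU1, PRTN3, ELANE and CFD are neighbours on chromosome 19, and all 4 were called higher. This block and its flanks were looked up after the values had been seen. CFD, complement factor D, differed by 1.53 ± 0.19. On one side PTBP1, a splicing regulator, differed by 0.47 ± 0.15 and was called. On the other side MED16, a Mediator subunit, at 0.45 ± 0.26, was not called, nor was R3HDM4 beyond it at 0.001 ± 0.17, and PLPPR3, between PTBP1 and AZU1, was not tested. PTBP1 lost its call without ABBV-075 replicate 2 or either ABBV-744 library, and MED16 gained one without ABBV-075 replicate 1. The 120 bases before the PRTN3 start are shown because this gene differed most; the capitals mark GAGGAAGT, a core of the binding site of PU.1, the product of SPI1. It is the RefSeq sequence of build GRCh38.p14, plus strand, chr19:840879-840998.
PRTN3: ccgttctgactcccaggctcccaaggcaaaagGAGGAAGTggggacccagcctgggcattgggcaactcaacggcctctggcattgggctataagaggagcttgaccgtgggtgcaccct
Searched on both strands of the 250 bases before each start, GAGGAAGT was in 2.17% of all promoters of the table and 2.14% of those of genes tested. It was in 3.96% of those of genes at least 2-fold higher with ABBV-744. Of the granule and progenitor genes tested, 9 had a promoter in the table and 1 held it.

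SPI1, the master regulator of monocytes and granulocytes, was at 14.6 and 11.4 FPKM with ABBV-075, 128 and 158 with ABBV-744 and 149 and 119 with DMSO, a difference of 3.36 ± 0.17 (adjusted p 1.74e-05). With ABBV-744 its libraries overlapped DMSO, and with ABBV-075 both lay far below. LMO2, a bridging protein of blood transcription complexes, read 4.45 and 5.18, 81.8 and 79.9 and 102 and 49.2 FPKM, a difference of 3.82 ± 0.14. CEBPE, needed for late granulocyte genes, read 1.21 and 0.821, 24.95 and 38.2 and 26.6 and 16.98, a difference of 3.99 ± 0.21. Of 28 blood transcription factors, 21 were tested, 10 were called higher and 2 lower, with a median of 0.33. GFI1 and IRF8, which steer granulocyte and monocyte fates, differed by 2.02 ± 0.14 and 1.75 ± 0.15. The 2 called lower were ID1, an inhibitor of basic helix-loop-helix factors, at -0.71 ± 0.15, and IRF4, at -0.45 ± 0.13. ID1 lost the call without ABBV-744 replicate 1 and IRF4 without either ABBV-744 library. CEBPA, the granulocyte lineage factor, was nearly level at 98.3 and 84.4 FPKM with ABBV-075 and 96.9 and 113 with ABBV-744, and RUNX1, at 38.7 and 42.9 and 49.1 and 51.1, was not called either.

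Monocyte genes were also higher with ABBV-744. Of 25 genes of monocyte and macrophage maturation, 16 were tested, 14 were called higher and 1 lower, with a median of 1.87. The filter passes a gene that is high under 1 compound alone, so these counts are no measure of the 25. The median was 1.03 with no filter, 3.27 with a pseudocount of 0.1 and 2.90 with the filter at 5 FPKM. CSF1R, the receptor for macrophage colony-stimulating factor, was at 0.767 and 0.404 FPKM with ABBV-075, 62.1 and 74.97 with ABBV-744 and 76.5 and 39.9 with DMSO, a difference of 5.46 ± 0.17 (adjusted p 6.20e-06). FCN1, a monocyte lectin, and CX3CR1, the fractalkine receptor, differed by 3.36 ± 0.15 and 3.22 ± 0.13. TLR2, a receptor for bacterial lipoproteins, was at 25.3 and 27.98 and 32.6 and 33.4 FPKM and was not called. The gene called lower was CD68, a macrophage lysosomal protein, at 5.39 and 4.69 and 3.10 and 3.36 FPKM, and it lost the call without either ABBV-744 library. Among the largest rises outside the lists, SLA, an adaptor that damps receptor signals, differed by 4.18 ± 0.14, MNDA, a nuclear protein of myeloid cells, by 4.17 ± 0.15, GAPT, an adaptor protein, by 4.06 ± 0.16, and LGALS12, a galectin, by 3.91 ± 0.15.

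Among genes of the phagocyte NADPH oxidase, which makes superoxide, CYBB, NCF1 and NCF4 were called higher with ABBV-744. CYBB, the membrane catalytic subunit, was at 0.105 and 0.367 FPKM with ABBV-075, 13.3 and 12.04 with ABBV-744 and 17.3 and 24.8 with DMSO, a difference of 3.47 ± 0.15. NCF1, the p47 organiser, was at 19.03 and 14.1, 159 and 166 and 20.9 and 17.5 FPKM, a difference of 3.23 ± 0.17, so that both ABBV-744 libraries stood above DMSO as well. NCF1 has the near-identical copies NCF1B and NCF1C, and reads could be split among them. NCF4, a further cytosolic subunit, differed by 0.79 ± 0.18. CYBA, the partner of CYBB, at 0.41 ± 0.21, and RAC2, a GTPase with other roles, at -0.28 ± 0.15, were not called. CYBA gained a call without ABBV-075 replicate 1 or ABBV-744 replicate 1, and RAC2 without ABBV-075 replicate 2. Of 17 leucocyte integrin and surface genes, 14 were tested, 9 were called higher and 1 lower, with a median of 0.74. PTPRC, the CD45 phosphatase, went from 42.4 and 43.2 to 218 and 201 FPKM, beside 99.5 and 111 with DMSO, and ITGA4, an integrin, differed by 2.68 ± 0.16. ITGB1, the beta partner of many integrins, was the gene called lower, at -0.70 ± 0.15.

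A small set of genes stood well above both DMSO and ABBV-075 with ABBV-744. Genes above DMSO with ABBV-744 but higher still with ABBV-075 were not sought here. By a rule chosen after values had been seen, genes were sought among those at least 2-fold higher than with ABBV-075. Both ABBV-744 libraries had to lie above 2 times both DMSO libraries. Only genes with a matched symbol and a mean of 5 FPKM or more with DMSO, ABBV-075 or ABBV-744 were searched. Among these, 20 genes were found, and by the mirrored rule none among the lower genes searched in the same way. S100A8, a calcium-binding protein released by neutrophils and monocytes, was at 82.02 and 36.04 FPKM with DMSO, 25.7 and 32.996 with ABBV-075 and 546 and 458 with ABBV-744. Its difference between the compounds was 4.06 ± 0.17 (adjusted p 7.34e-06). Its partner S100A9 read 302 and 103, 349 and 332 and 1181 and 1138 FPKM in that order. IL8, the neutrophil chemokine, read 15.2 and 21.97, 6.41 and 7.73 and 57.7 and 46.04, and TYROBP, a signalling adaptor of myeloid receptors, 26.2 and 18.3, 19.3 and 12.97 and 93.4 and 100.2. By the rule itself, both ABBV-744 libraries lay above all 4 others in every gene of the set. The inflammatory cytokines IL1B and TNF were in the set at lower levels, 5.73 and 5.13 and 5.65 and 6.60 FPKM with ABBV-744 and 2.34 and 1.34 and 1.71 and 2.27 with DMSO. The rest were AMICA1, NCF1, NCF1B, NCF1C, MPZL2, LTB, LAMTOR3, CCL4, HCST, CYTH4, IL10RB-AS1 and the chemokine copies CCL4L2, CCL3L1 and CCL3L3, whose reads could be split.

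Cytokine genes differed in both directions. Of 19 cytokine and NF-kB feedback genes, 14 were tested, 6 were called higher and 4 lower, with a median of -0.04. Over all genes 23.6% were called higher and 21.8% lower, so calls in both directions are not particular to these genes. With the 2 DMSO libraries of the line in the fit, 1 gene was called lower. The median was 0.07 without ABBV-075 replicate 1, -0.15 without ABBV-075 replicate 2, -0.01 and -0.08 without ABBV-744 replicate 1 and 2, 0.01 with no filter and 0.47 with the filter at 5 FPKM. IL1RN, the interleukin 1 receptor antagonist, was at 0.828 and 0.678 FPKM with ABBV-075 and 22.9 and 25.1 with ABBV-744, a difference of 3.83 ± 0.13. The 4 called lower act inside the NF-kB pathway or are its targets: NFKBIZ at -0.93 ± 0.13, NFKB2 at -0.55 ± 0.14, RELB at -0.42 ± 0.14 and ICAM1 at -0.40 ± 0.14. NFKB2, RELB and ICAM1 lost the call without either ABBV-744 library, and RELB and ICAM1 also without ABBV-075 replicate 1.

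**Figure D3:**
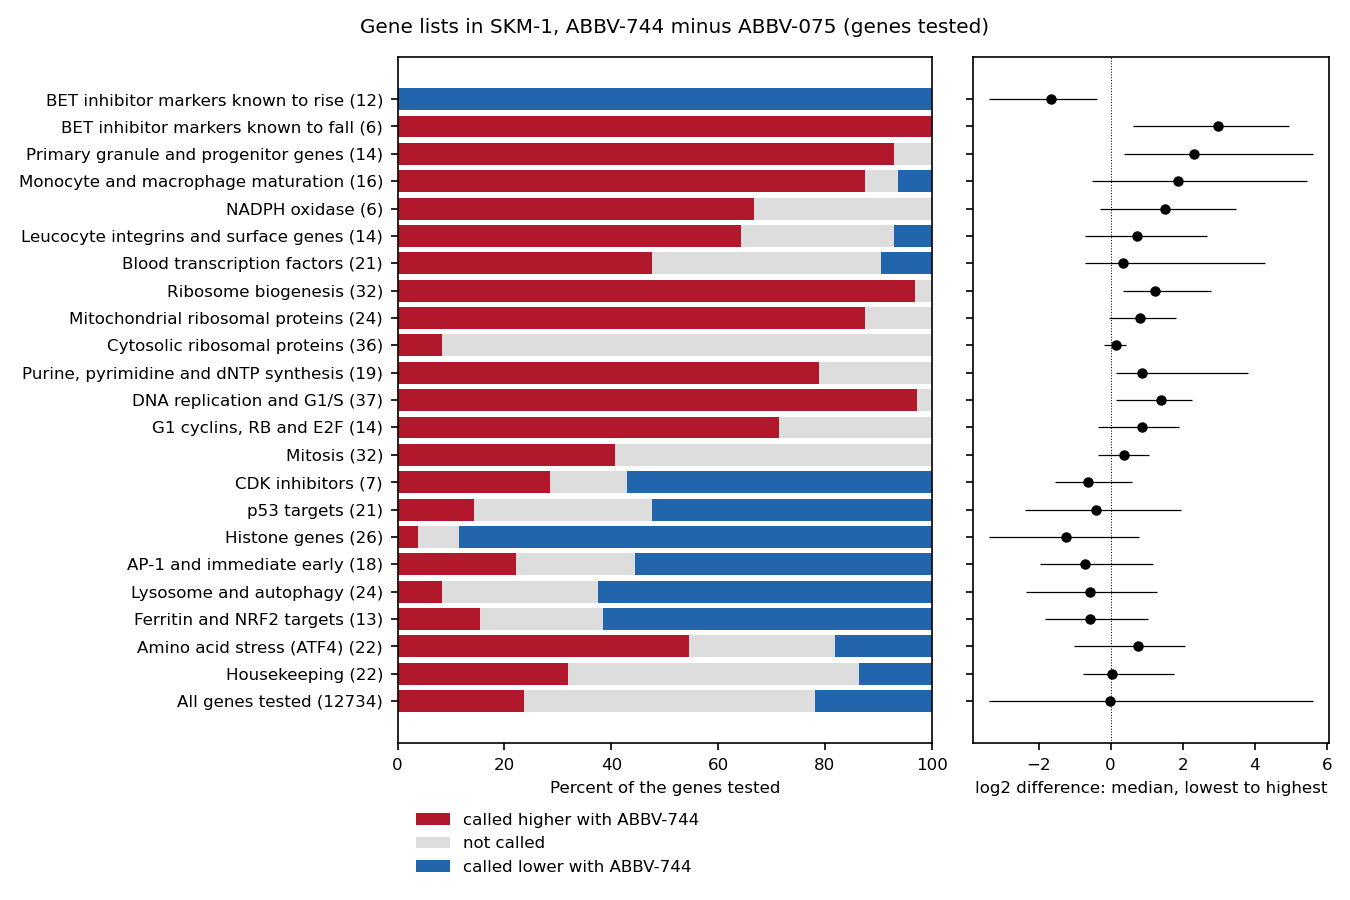
Left, the share of each list's tested genes called higher (red), not called (grey) or called lower (blue) with ABBV-744, with the number tested in brackets. Right, the median difference (points) and the range from lowest to highest (lines). Ribosome biogenesis has 31 of 32 genes higher and the histone list 23 of 26 lower, beside 23.6% and 21.8% over all genes.

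Histone genes made up 7 of the 15 largest falls. Of 28 histone genes, 27 were found, 26 were tested, 23 were called lower, 17 of them at least 2-fold, and the median was -1.23. Most replication-dependent histone messages end in a stem-loop and not in a poly-A tail, and the libraries were poly-A selected, so these values stand for the polyadenylated part. HIST2H2BE, an H2B gene, was at 165 and 185 FPKM with ABBV-075, 15.96 and 16.1 with ABBV-744 and 1.57 and 1.78 with DMSO, and its difference of -3.37 ± 0.14 (adjusted p 7.34e-06) was the lowest of all genes tested. HIST1H2BD, another H2B gene, read 121 and 132, 18.4 and 20.5 and 1.996 and 2.01, a difference of -2.64 ± 0.14. HIST2H4A, an H4 gene, read 257 and 253, 37.95 and 35.7 and 4.47 and 4.02, a difference of -2.76 ± 0.13. In these 3 genes the ABBV-744 libraries lay between DMSO and ABBV-075 without overlap. HIST2H2BF, HIST1H3D, HIST2H3C and HIST2H2AA4 were also among the 15 largest falls, at -2.82 to -2.46. Several histone genes, HIST2H4A, HIST2H3C and HIST2H2AA4 among them, have near-identical copies, so their values are uncertain.

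Replacement histones did not move as 1. H2AFZ, the H2A.Z variant, was the only histone gene called higher, with 514 and 499 FPKM under ABBV-075 and 934 and 809 under ABBV-744. H2AFX, the variant marked at DNA breaks, and H3F3B, an H3.3 gene, were not called, at -0.16 ± 0.19 and -0.43 ± 0.19, while H3F3A, the other H3.3 gene, was called lower at -1.51 ± 0.25 and lost the call in both fits that held DMSO libraries. H3F3B was called without ABBV-075 replicate 1 or ABBV-744 replicate 2, and H2AFX changed sign without ABBV-075 replicate 1 or ABBV-744 replicate 1. The 100 bases before the start of 4 H2B genes are shown because they share an octamer, ATTTGCAT, in nearly the same place; the capitals mark it. HIST1H2BK, HIST1H2BJ and HIST1H2BH were picked for this sequence, after the search, and differed by -1.11 ± 0.13, -1.001 ± 0.13 and -1.77 ± 0.14. The sequences are RefSeq GRCh38.p14, in the order chr1:149886683-149886782 (minus strand), chr6:27146859-27146958 (minus), chr6:27132796-27132895 (minus) and chr6:26251514-26251613 (plus).
HIST2H2BE: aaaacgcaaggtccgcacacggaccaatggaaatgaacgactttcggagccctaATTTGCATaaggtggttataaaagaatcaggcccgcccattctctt
HIST1H2BK: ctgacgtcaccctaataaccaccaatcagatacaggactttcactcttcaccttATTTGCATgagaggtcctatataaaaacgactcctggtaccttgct
HIST1H2BJ: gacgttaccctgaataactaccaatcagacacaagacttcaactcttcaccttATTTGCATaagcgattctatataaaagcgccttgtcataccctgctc
HIST1H2BH: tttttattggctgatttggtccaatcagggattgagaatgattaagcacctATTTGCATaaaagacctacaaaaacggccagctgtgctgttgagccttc
The octamer, a site known for POU factors at H2B promoters, began at -46 in HIST2H2BE and HIST1H2BK, -47 in HIST1H2BJ and -49 in HIST1H2BH, counted from the start. On either strand of the 250 bases before the start, it was in 1.63% of all promoters and 1.32% of those of genes tested. It was in 5.36% of those of genes at least 2-fold lower and 1.06% of those at least 2-fold higher with ABBV-744. Of the histone genes tested, 22 had a promoter in the table and 8 of them (36.4%) held the octamer, while 19 (86.4%) held CCAAT, which was in 35.8% of the promoters of genes tested. The histone genes are part of the lower set, so its share of octamers is not separate from theirs. Other H2B genes that were searched, HIST1H2BD, HIST1H2BN and HIST3H2BB, held no octamer. HIST1H2BD differed by -2.64 ± 0.14, further than the genes picked for the octamer. H3F3B held it and was not called. Whether the octamer bears on the difference was not tested.

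TXNIP and ARRDC4, arrestin family genes that restrain glucose uptake and share control by the MondoA and MLX factors, were both lower with ABBV-744. TXNIP was at 2869.7 and 3031 FPKM with ABBV-075, 433 and 393 with ABBV-744 and 142 and 120.3 with DMSO, a difference of -2.83 ± 0.12 (adjusted p 8.88e-06). ARRDC4 was at 32.1 and 37.3, 4.23 and 3.22 and 4.43 and 5.39 FPKM, a difference of -2.92 ± 0.16, and its ABBV-744 libraries lay below both DMSO libraries. The TXNIP promoter is shown for the carbohydrate response element in capitals, the parts CACGNG and CNCGNG with 5 bases between them, searched on both strands (RefSeq GRCh38.p14, minus strand, chr1:145996580-145996699).
TXNIP: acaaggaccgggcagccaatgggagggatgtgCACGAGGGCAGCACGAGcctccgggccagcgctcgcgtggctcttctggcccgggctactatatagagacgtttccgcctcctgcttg
The element began at -88 and its pattern was in 0.424% of all promoters, 0.742% of those of genes tested and 0.631% of those of genes at least 2-fold lower. The same search found no match to the pattern in the 250 bases before the ARRDC4 start.

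Further genes of the lower arm had other roles. NEAT1, a nuclear RNA that builds paraspeckles, was at 628 and 583 FPKM with ABBV-075, 78.8 and 76.2 with ABBV-744 and 21.5 and 30.4 with DMSO, a difference of -2.95 ± 0.13. MALAT1, another nuclear RNA, differed by -1.65 ± 0.18. The secreted chaperone CLU read 47.4 and 48.3, 5.20 and 5.41 and 5.80 and 4.17 FPKM, a difference of -2.95 ± 0.13, so that ABBV-744 overlapped DMSO. PEG10, an imprinted gene derived from a retrotransposon, read 29.7 and 34.98, 3.53 and 3.63 and 2.66 and 3.35 FPKM, with ABBV-744 just above DMSO.

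Lysosome, autophagy and ferritin genes were mostly lower with ABBV-744. Of 24 lysosome and autophagy genes, 15 were called lower and 2 higher, with a median of -0.56. The count of lower genes was 9 without ABBV-744 replicate 1 and 6 when the 2 DMSO libraries of the line were in the fit. SQSTM1, the p62 cargo receptor, was at 317 and 259.7 FPKM with ABBV-075, 51.4 and 58.99 with ABBV-744 and 39.003 and 30.6 with DMSO, a difference of -2.36 ± 0.15. MAP1LC3B, which coats autophagosomes, differed by -1.75 ± 0.22. GLA and CTSZ, both lysosomal hydrolases, were the 2 called higher, at 1.29 ± 0.13 and 0.73 ± 0.15. Of 13 ferritin and NRF2 target genes, 8 were called lower and 2 higher, with a median of -0.57, but 5 were lower without either ABBV-744 library and 4 with the 2 DMSO libraries of the line in the fit. The ferritin chains FTL and FTH1 read 5002 and 4681 and 1405 and 1571 FPKM with ABBV-075 and 1578 and 1601 and 589 and 545 with ABBV-744. With DMSO, FTL read 801 and 695 and FTH1 215 and 200.4 FPKM, below both treated groups. HMOX1, haem oxygenase, and NQO1, a quinone reductase, differed by -1.83 ± 0.13 and -1.29 ± 0.16, while TXN and SLC7A11 were higher at 1.05 ± 0.15 and 0.86 ± 0.12.

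Immediate early genes were lower with ABBV-744 in the larger part. Of 22 AP-1 and immediate early genes, 18 were tested, 10 were called lower and 4 higher, with a median of -0.70, or -0.41 with a pseudocount of 5. DUSP5, a phosphatase of ERK, differed by -1.95 ± 0.13, and the transcription factors EGR1 and JUND by -1.78 ± 0.15 and -1.60 ± 0.14. The 4 called higher were DUSP2, FOSL1, NR4A1 and DUSP1, at 1.17 ± 0.16, 0.89 ± 0.14, 0.88 ± 0.14 and 0.62 ± 0.17, and DUSP1 lost the call without either ABBV-744 library or ABBV-075 replicate 2. Targets of p53 were split: of 22 genes, 21 were tested, 11 were called lower and 3 higher, with a median of -0.42, or -0.64 without ABBV-075 replicate 2. TP53INP1, which promotes p53 activity and autophagy, was at 38.7 and 46.6 FPKM with ABBV-075 and 7.68 and 7.17 with ABBV-744, a difference of -2.37 ± 0.15, and BTG2, which restrains growth, differed by -1.33 ± 0.13. AEN, a nuclease of apoptosis, FAS, a death receptor, and DDB2, a DNA repair factor, were higher, at 1.95 ± 0.15, 1.06 ± 0.13 and 0.75 ± 0.16.

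The BCL2 family held differences in both directions on both sides. BMF, which neutralises BCL2, was at 73.5 and 63.6 FPKM with ABBV-075, 11.2 and 12.1 with ABBV-744 and 4.66 and 4.03 with DMSO, a difference of -2.45 ± 0.15 (adjusted p 2.76e-05). BCL2L11, the BIM gene, read 14.7 and 16.1, 6.50 and 6.39 and 6.61 and 6.21 FPKM, a difference of -1.14 ± 0.14, and its ABBV-744 libraries lay inside the DMSO pair. PMAIP1, the NOXA gene, differed by -0.87 ± 0.14, while BID and BIK were higher, at 1.04 ± 0.14 and 0.54 ± 0.12. BIK lost the call without ABBV-744 replicate 2. Of 11 such pro-apoptotic genes, 9 were tested, 3 were called lower and 2 higher. Over all genes 21.8% were called lower and 23.6% higher, so calls in both directions are not particular to this family. The median of the pro-apoptotic list was -0.19, and lay between -0.49 and 0.26 with 1 library left out. Among the 5 genes that protect cells, BCL2 and BCL2A1 were higher, BCL2A1 at 0.123 and 0.263 FPKM with ABBV-075 and 5.18 and 3.32 with ABBV-744. MCL1 was lower, at 188 and 219.9 and 141 and 128 FPKM, beside 83.9 and 87.5 with DMSO, a difference of -0.59 ± 0.14 that was not called without ABBV-744 replicate 2. BCL2L2 was lower at -0.64 ± 0.13. BCL2L1, the BCL-XL gene, at 9.71 and 8.13 and 10.1 and 12.6 FPKM, was not called (adjusted p 0.154), but gained a call without ABBV-075 replicate 1.

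Amino acid stress genes, which ATF4 controls, were more often called higher than lower with ABBV-744. Of 22 genes, 12 were called higher and 4 lower, with a median of 0.77, or 0.27 with a pseudocount of 5. Over all genes 23.6% were called higher and 21.8% lower, so the lower calls are not particular to this list. With the 2 DMSO libraries of the line in the fit, 1 gene was called lower. SLC7A1, an arginine carrier, and CHAC1, which degrades glutathione, differed by 2.06 ± 0.14 and 1.83 ± 0.18. ATF4 itself, at 338 and 283 and 367 and 360.0 FPKM, was not called. DDIT3, the CHOP gene, was called lower at -1.03 ± 0.13, as were SESN2, SLC38A2 and ATF5, at -0.66 ± 0.16, -0.64 ± 0.15 and -0.47 ± 0.13. SESN2 lost the call without ABBV-744 replicate 1, SLC38A2 without replicate 2, and ATF5 without either or without ABBV-075 replicate 1. Of 22 housekeeping genes, 7 were called higher and 3 lower, and the median was 0.03, or 0.18 and -0.03 without ABBV-075 replicate 1 and 2 and -0.04 with libraries centred on their medians. ACTB was among the higher ones at 1.39 ± 0.12, and POLR2A, YWHAZ and VCP were lower at -0.77 to -0.54. POLR2A and VCP lost the call without ABBV-744 replicate 1, and YWHAZ without replicate 2 or ABBV-075 replicate 2.

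Not all genes were called. Of the 6950 genes not called, 6754 had a 95% interval of the difference that lay within 1 log2 unit of 0 on both sides, and 17 had a difference beyond 1 unit. Over all genes tested, 2684 had an interval within 0.5 units of 0. A missed call is therefore no sign of equal levels for differences below that size.

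The SKM-1 DMSO libraries placed each difference. Comparisons of either compound with DMSO share these 2 libraries, so positions are given as counts with no test. Of the 1016 genes at least 2-fold higher with ABBV-744 than with ABBV-075, both DMSO libraries lay above both ABBV-744 libraries in 454 (44.7%), overlapped ABBV-744 and were clear of ABBV-075 in 412 (40.6%), and lay between the compounds in 100 (9.84%). In 46 genes (4.53%) DMSO overlapped ABBV-075, and in 4 it lay below both ABBV-075 libraries. Of the 454 genes at least 2-fold lower, DMSO lay below both ABBV-744 libraries in 267 (58.8%), overlapped ABBV-744 in 147 (32.4%), lay between in 28 (6.17%) and overlapped ABBV-075 in 12 (2.64%). For most of these genes, then, the ABBV-744 libraries were on the DMSO side of the ABBV-075 libraries. The 2 DMSO libraries lay far apart (SD of the log2 difference 0.655), so an overlap with them is no sign of equal levels.

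**Figure D4:**
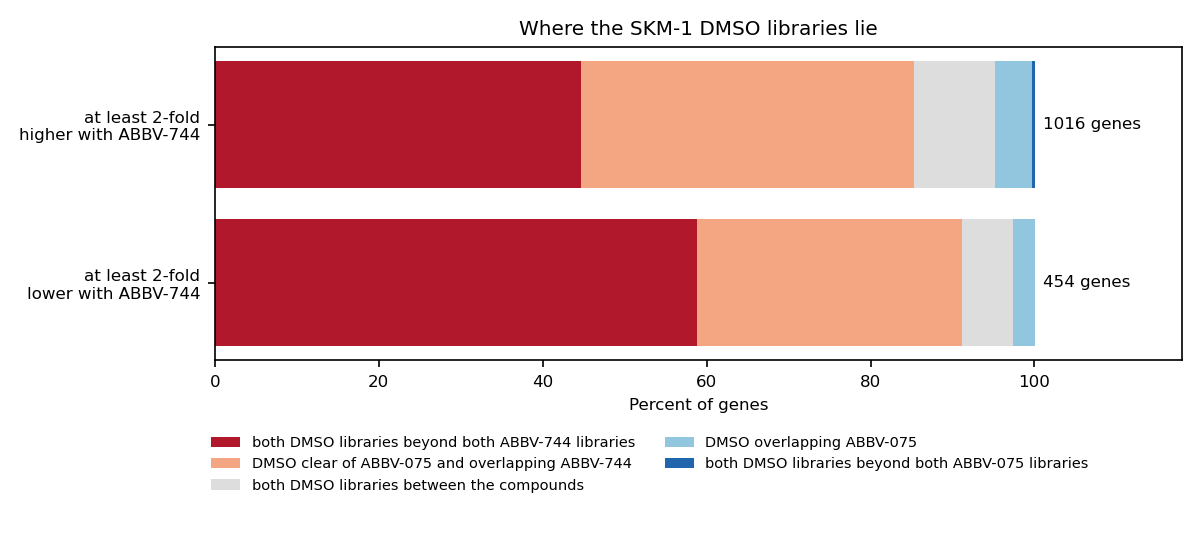
Share of the genes at least 2-fold higher (1016) or lower (454) with ABBV-744 than with ABBV-075 (x axis, percent) by where the 2 SKM-1 DMSO libraries lay. Dark red and light red, where DMSO lay beyond or overlapped ABBV-744 and was clear of ABBV-075, make up most of both bars.

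The other AML lines showed whether the gap between the compounds is larger in SKM-1. The same difference was compared between SKM-1 and the mean of MV-4-11 and Kasumi-1 in 10510 genes with 1 FPKM in at least 2 treated libraries of each line, and 1103 (10.5%) were called, 675 higher and 428 lower in SKM-1. Of the 4552 genes called between the compounds in SKM-1 and tested here, 3230 had the same sign in both other lines and 970 were called between lines. These genes were chosen with the same SKM-1 libraries, so the 970 are no independent count. The share with the same sign over all 10510 genes was not computed. The largest gaps were in MPO at 4.80 ± 0.31, PRTN3 at 4.51 ± 0.33, ELANE at 4.49 ± 0.26, MYB at 3.998 ± 0.14 and NCF1 at 3.85 ± 0.22. For MYB the difference was 0.38 in MV-4-11 and 0.18 in Kasumi-1, beside 4.27 in SKM-1, and for PRTN3 it was -0.27 and 2.49, beside 5.62. MYC differed by 0.71 and 2.04, and the gap to SKM-1 was 3.58 ± 0.13 (adjusted p 7.92e-07). The lowest were BMF at -2.08 ± 0.20, CLU at -1.92 ± 0.27, TMC6, a membrane channel-like protein gene, at -1.90 ± 0.36, DDIT3 at -1.76 ± 0.16 and SQSTM1 at -1.72 ± 0.22. TMC6, and DDIT3 in MV-4-11, took the opposite sign to SKM-1, with 0.25 and 1.68 for TMC6 and 1.504 and -0.04 for DDIT3 in MV-4-11 and Kasumi-1. ARRDC4, SERPINI1 and CDKN1A were not called between lines, at -0.40 ± 0.20, 0.19 ± 0.24 and 0.08 ± 0.23.

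That count moved with single libraries. It was 460 and 544 without SKM-1 ABBV-075 replicate 1 and 2, 346 and 349 without SKM-1 ABBV-744 replicate 1 and 2, 553 and 618 without MV-4-11 ABBV-075 replicate 1 and 2, and 732 and 621 without MV-4-11 ABBV-744 replicate 1 and 2. Without Kasumi-1 ABBV-744 replicate 1 and 2 it was 648 and 664, and without Kasumi-1 ABBV-075 replicate 1 and 2 it rose to 2792 and 1907.

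**Figure D5:**
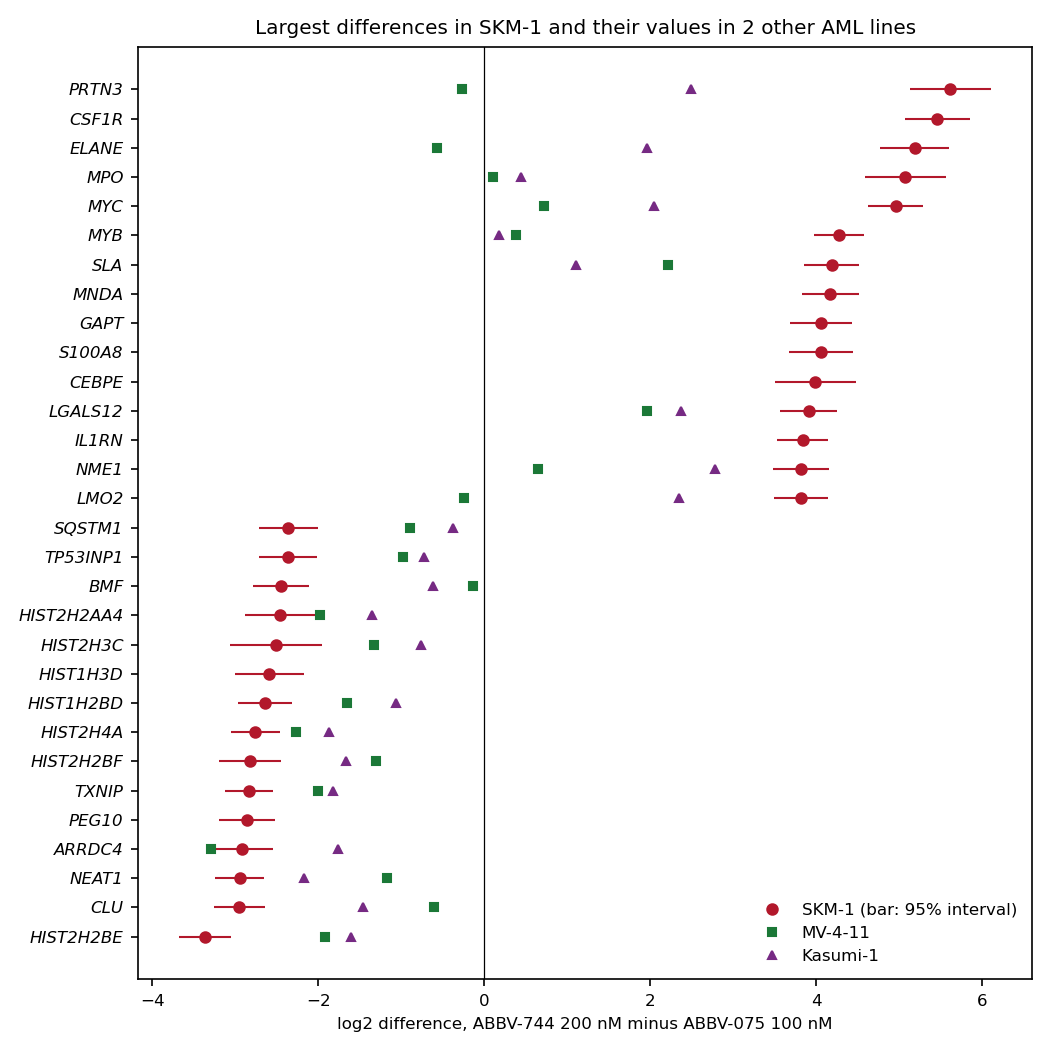
Difference between the compounds (x axis, log2(FPKM + 1), ABBV-744 minus ABBV-075) for the 15 largest rises and 15 largest falls in SKM-1 (circles, with 95% intervals) and for the same genes in MV-4-11 (squares) and Kasumi-1 (triangles), where tested in all 3 lines. PRTN3, ELANE and LMO2 lie below 0 in MV-4-11, while TXNIP, NEAT1 and HIST2H2BE lie below 0 in all 3 lines.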

How the data were processed

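The authors deposited 1 table of FPKM values with 30373 rows and a column per library, per the file header. The submitters' processing notes name DESeq2, with no version or role. Aligner, quantifier, genome build and annotation: not given in the sources used here. Of the values in the 4 libraries, 0.212% lay above 0 and below 0.0001, so FPKM were estimates and not multiples of whole reads, and no depth, interval or floor was computed. Symbols were matched to RefSeq: of the 12734 genes tested, 10922 matched by symbol, 932 by synonym, 37 by Ensembl identifier and 843 not at all.

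Genes that reached 1 FPKM in 2 or more of the 4 SKM-1 libraries were analysed as log2(FPKM + 1) in R 4.3.3 with limma 3.58.1 (lmFit, then eBayes with trend and robust, statmod 1.5.0). The fit held only the 4 libraries, with 2 residual degrees of freedom. Tests were two-sided with the Benjamini-Hochberg adjustment over all genes tested, and intervals are at 95%. The smallest p of an exact permutation test of 2 libraries against 2 is 0.333, and the calls borrow their spread from all genes. The difference between lines was fitted to the 12 treated AML libraries. The procedure was tested on simulated data.

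Named genes were MYC, HEXIM1, SERPINI1, CCR2, CD180, MYB, CDK6, CDKN1A, BRD2, BRD3 and 4 genes of the BCL2 family (BCL2, MCL1, BCL2L1, BCL2L11), the 15 largest rises and 15 largest falls among called genes whose higher group averaged 5 FPKM or more without overlap, up to 4 called and 3 uncalled genes of each of 42 lists, and the 5 largest gaps each way between lines. Members of counts of 5 or fewer, S100A9, TYROBP, the chromosome 19 neighbours, 3 further H2B genes and a few list members beyond the first 4 were named after their values had been seen. A few members of the lists are not reported here. The comparison, the gene lists and the rule were chosen with earlier results of these data known, so patterns that those results show are not independent support. Promoters came from a RefSeq GRCh38.p14 table, which may not be the build of the deposited values. Alternatives varied the pseudocount, the filter, the scaling, the libraries fitted and the moderation of the variance. Plots were drawn with Python 3.11.15, pandas 2.3.3 and matplotlib 3.10.9.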

Additional observations from a re-analysis of the deposited data

Results flagged for a closer look

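The difference between the compounds was itself different in SKM-1 from the mean of MV-4-11 and Kasumi-1 in 1103 of 10510 genes tested, by limma's test of that contrast. Of the genes named in the text, 168 were tested between lines and 73 were called, 45 higher and 28 lower in SKM-1. Many were named for a large difference in the same SKM-1 libraries or between lines, so this count is no independent result. Of the 73, 25 were named one by one for their size or their role. They follow with the gap on the log2 scale. Among regulators the gap was 3.58 for MYC, 3.998 for MYB and 2.77 for LMO2. Granule and phagocyte genes had gaps of 4.80 (MPO), 4.51 (PRTN3), 4.49 (ELANE) and 3.85 (NCF1). For SLA it was 2.53, for NME1 2.11, for LGALS12 1.75 and for BCL2 0.82. Negative gaps were found in BMF (-2.08), CLU (-1.92), SQSTM1 (-1.725), TP53INP1 (-1.51) and NEAT1 (-1.28). TXNIP followed at -0.92 and HEXIM1 at -0.71. In these genes ABBV-744 lay further below ABBV-075 in SKM-1 than in the mean of the other lines. In SKM-1 both ABBV-744 libraries lay above both DMSO libraries in all of them but CLU, where they overlapped DMSO. TMC6 (-1.90) and DDIT3 (-1.76) were lower with ABBV-744 than with ABBV-075 in SKM-1. Their mean difference in the other lines was above 0. The histone genes HIST2H2BE, HIST2H3C, HIST2H2BF, HIST1H2BD and HIST2H4A had gaps of -1.61, -1.47, -1.34, -1.29 and -0.69. No group of 4 or more libraries exists in the comparison, so single libraries could not be tested for standing apart.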

How the results depend on the processing

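Under all 13 alternatives no gene called between the compounds changed sign. The count of 5784 called genes was 5054 with no filter on low values, 4289 with a filter at 5 FPKM, and 5592 to 6109 under other pseudocounts and scalings, the fit of 24 libraries and plain variance moderation. With the 6 SKM-1 libraries it was 2372, 1352 higher and 1020 lower, of which 2371 were called before, and list counts fell with it: 8 of 21 mitochondrial ribosome genes, 9 of 15 nucleotide synthesis genes, 6 of 11 lower p53 targets, 3 of 7 lower BET and P-TEFb genes, 2 of 6 chaperones and 1 of 7 higher housekeeping genes were counted there. The counts at 2-fold depended on the pseudocount: 791 lower genes with 0.1, and 499 higher and 137 lower genes with 5. Leaving out each library in turn gave 3715 to 6584 called genes, 2093 to 3449 higher and 1523 to 3135 lower, 999 to 1128 at least 2-fold higher and 465 to 506 at least 2-fold lower. An arm with 1 library was assumed to vary like the other group. Between lines, 690 genes were called with the filter at 5 FPKM, and 346 to 2792 with each library left out. Centring each library on its median moved the median difference from -0.005 to -0.08 and the split of calls from 52.1% to 44.4% higher. Of 121 named genes called at 2-fold or more, 115 kept the call under every alternative, and of 66 called below 2-fold, 13 did. Of named genes not called, BRD3 turned to -0.00604 with median centring, R3HDM4 to -0.0701 with it and -0.0802 with quantile normalization and to between -0.179 and 0.181 with each library left out, and H2AFX ranged from -0.361 to 0.0391 with each library left out. The cause of these changes was not tested. No paired analysis was possible because the labels number no replicates, and the numbers used here follow the order of the records. Depth is unknown, so low genes carry an error that could not be stated.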

Other observations

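Further gene lists were described in the same way, each by its counts and its median beside the 23.6% higher, 21.8% lower and -0.005 over all genes tested. Of 22 glycolysis genes, 11 were called higher with ABBV-744 and 2 lower, with a median of 0.38. GPI, which interconverts the hexose phosphates, and HK2, a hexokinase, differed by 1.75 ± 0.17 and 1.67 ± 0.13, while PKM, pyruvate kinase, and SLC2A3, a glucose carrier, were lower at -0.76 ± 0.15 and -0.69 ± 0.13. When the 2 SKM-1 DMSO libraries were in the fit, 3 glycolysis genes were called higher. Of 24 genes of cholesterol synthesis, 23 were tested and 9 were called higher, with a median of 0.38, led by EBP at 1.37 ± 0.17 and DHCR7 at 1.27 ± 0.17, both late enzymes of the pathway, and that count was 4 without ABBV-744 replicate 2. Of 18 aminoacyl-tRNA synthetases, 11 were called higher with a median of 0.44, led by VARS at 1.98 ± 0.17, and 5 without either ABBV-744 library. Of 15 heat shock and chaperone genes, 6 were higher and 1 lower, with a median of 0.28. HSPE1, a mitochondrial chaperonin, differed by 2.40 ± 0.17, and BAG3 was the gene called lower, at -0.73 ± 0.14, but not without ABBV-744 replicate 1. Of 26 respiratory chain genes, 10 were called higher with a median of 0.29, led by NDUFA9 at 0.99 ± 0.14, and 6 and 3 without ABBV-744 replicate 1 and 2.

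Immune genes were divided. Of 21 interferon response genes, 13 were tested, 5 were called higher and 4 lower, with a median of 0.02. IFITM1, which blocks virus entry, was at 9.54 and 4.04 FPKM with ABBV-075 and 38.2 and 43.1 with ABBV-744, a difference of 2.51 ± 0.32, and ISG15, IFITM3, MX2 and IFIT2 were the others called higher. IFI6 differed by -1.50 ± 0.15, and IRF7, STAT2 and IRF9, which carry the interferon signal, were lower at -0.90 to -0.59. IFIT2 lost the call without either ABBV-744 library and IRF9 without replicate 2. Of 10 MHC class II genes, 7 were tested, 4 were higher (HLA-DRA, CD74, HLA-DRB1 and HLA-DMB, at 0.42 to 0.94) and HLA-DQB1 was lower at -0.51 ± 0.17, with a median of 0.43, or 0.19 with a pseudocount of 5. HLA-DMB was not called without either ABBV-744 library, and HLA-DQB1 not without ABBV-744 replicate 1 or ABBV-075 replicate 1. Of 13 MHC class I genes, NLRC5, PSMB8, PSMB9 and ERAP1 were higher, at 0.57 to 1.43, and HLA-E lower at -0.48 ± 0.14, with a median of 0.23. Without ABBV-075 replicate 1 and 2 that median was 0.44 and 0.02, and without ABBV-744 replicate 1 and 2 it was 0.35 and 0.10. Without ABBV-075 replicate 1, 7 of these genes were called higher, and without ABBV-744 replicate 2 it was 2. HLA-E and ERAP1 lost the call without either ABBV-744 library, HLA-E also without ABBV-075 replicate 1, and PSMB9, at an adjusted p of 0.0497 by limma, without replicate 2 of either compound. HLA genes are near copies of each other, so their values are uncertain. Of 13 HOXA genes and partners, 9 were tested. HOXA9 and HOXA10, progenitor homeobox genes, were higher at 0.71 ± 0.14 and 0.72 ± 0.14, HOXB3 was lower at -0.63 ± 0.13, and the median was 0.01. Centring each library on its median turned the medians of the interferon list and the HOXA list to -0.05 and -0.06, and the interferon median was -0.02 and 0.06 without ABBV-075 replicate 1 and 2. HOXA9, HOXA10 and HOXB3 each lost the call without ABBV-744 replicate 1. Of 10 nuclear and mitochondrial transcripts, MT-ATP6 was higher at 0.33 ± 0.11 and lost the call whenever 1 library was left out, NEAT1 and MALAT1 were lower, and the median was 0.14. Of the 8 myeloid markers, 7 were called higher, with a median of 1.84.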
